A study of Mus musculus with 24 samples.

Results

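The genes described here build, brake and steer the actin cytoskeleton of maturing eosinophils. They are 47 genes chosen by name and role. Among them are the actins, the proteins that bind actin monomers, the Arp2/3 complex, its activators and their partners. Also in the set are filament severing and bundling proteins, integrin linkers, myosins and small GTPases with their regulators. All 47 symbols were among the 24982 in the count files, and all 47 were among the 12743 genes with enough reads to be tested. The cells came from the bone marrow of wild type C57BL6 mice and were sorted into 4 maturation stages, I to IV. The mice were in steady state, or had been given IL-33, a cytokine that drives eosinophilia, at 400 ng of recombinant protein into the peritoneum every day over 7 days. Every one of the 8 groups of condition and stage had 3 libraries, each from marrow pooled from 3 mice and sorted to a purity of at least 95% after magnetic removal of cells with Ly6G, CD90.2, NK1.1 or CD45R on their surface. The series calls the 3 libraries of a group biological replicates, and no age or sex is stated.

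Actin filaments grow from monomers, which profilin and the beta-thymosins hold in reserve. The Arp2/3 complex starts branches on existing filaments when WASP or the WAVE complex activates it, cofilin and gelsolin cut old filaments, and small GTPases such as Rac, Cdc42 and RhoA decide where this happens. In granulocytes this turnover drives the leading edge of a crawling cell, and integrins coupled to it through talin, vinculin and kindlin hold the cell to vessel walls.

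Transcription of many actin genes is known to respond to SRF, a factor that binds the CArG box and is activated when the pool of free actin monomers shrinks. The 43 members with an entry in a table of RefSeq promoters (build GRCm38.p6, 250 bases before to 50 after the start of transcription) were searched for this box on both strands; Actb, Cyfip1, Nckap1l and Rac1 had no entry. A CArG box stood in 3 of the 43 (6.98%), against 488 of the 27025 genes in the table (1.81%). The 250 bases before the start are shown for these 3 genes, 5′ to 3′ on the gene's strand with the box in capitals, because the box begins 90 bases before the start in Actg1, 227 before it in Vcl and at the outer edge of the window in Arpc4. Actg1 lies on the minus strand of chr11:120348496-120348745, Vcl on the plus strand of chr14:20929148-20929397 and Arpc4 on the plus strand of chr6:113377863-113378112.
Actg1: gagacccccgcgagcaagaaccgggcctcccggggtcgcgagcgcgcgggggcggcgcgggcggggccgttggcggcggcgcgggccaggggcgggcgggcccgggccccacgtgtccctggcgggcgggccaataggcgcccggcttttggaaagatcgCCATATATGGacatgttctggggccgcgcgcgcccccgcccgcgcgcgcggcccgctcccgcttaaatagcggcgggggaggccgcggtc
Vcl: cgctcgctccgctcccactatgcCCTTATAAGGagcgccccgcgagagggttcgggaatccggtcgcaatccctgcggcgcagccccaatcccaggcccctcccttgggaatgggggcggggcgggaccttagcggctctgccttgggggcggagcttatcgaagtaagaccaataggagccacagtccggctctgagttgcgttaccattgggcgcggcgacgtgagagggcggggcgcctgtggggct
Arpc4: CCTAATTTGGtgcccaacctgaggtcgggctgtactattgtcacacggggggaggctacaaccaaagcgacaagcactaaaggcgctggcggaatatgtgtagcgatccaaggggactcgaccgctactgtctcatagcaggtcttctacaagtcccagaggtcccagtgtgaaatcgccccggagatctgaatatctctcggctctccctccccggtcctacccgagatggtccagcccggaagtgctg
A match shows only that the letters are there. The core of the PU.1 site, a factor of myeloid cells, was searched as GAGGAAGT on both strands and stood in Arpc1b and Elmo1, 2 of 43 (4.65%) against 3.69% of all genes. No member promoter held both motifs.

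Gene counts per library ranged from 8335138 to 14909453, and levels are given as scaled CPM, a gene's counts relative to the library's total after trimmed-mean scaling. Eosinophil identity was checked with 12 marker genes. Their summed level lay between 24610 and 44180 scaled CPM in steady state stages I to III, at 5017 to 8624 in steady state stage IV and at 23590 to 41730 under IL-33. Ccr3, the eotaxin receptor of mature eosinophils, was at 2243, 2156 and 1572 scaled CPM in the steady state stage IV libraries and 1400, 1585 and 1646 in those of IL-33. Ccr3 does not stand for the whole list. From stage III to IV in steady state 7 of the 12 markers fell and 0 rose (edgeR adjusted p under 0.05). Epx of this list was at 20.23, 18.57 and 26.47 scaled CPM in steady state stage IV and 5997, 6901 and 4504 in IL-33 stage IV. Markers of other cells also had signal. The 12 neutrophil markers summed to 10570 to 26450 in steady state stages II to IV and to 1251 to 10440 in the 12 IL-33 libraries. In steady state stage IV the neutrophil sum was above the eosinophil sum in every library. Over all libraries 13 monocyte and macrophage markers summed to 1169 to 3671, 9 basophil and mast cell markers to 26.33 to 2922 and 7 lymphocyte markers to 45.04 to 1223. The sum of 7 erythroid markers was at most 29.8. Mcpt4 and Tpsb2 of the mast cell list and the 4 haemoglobin genes of the erythroid list were at 0 in all groups. Whether other cells or the sorted cells gave these reads was not tested. The steady state libraries numbered 3 stood apart in all 4 stages on the stress-induced gene Jun (3331 to 5018 scaled CPM against 875 to 2142 in the other 20 libraries). With bulk libraries, fewer cells of a type and less RNA per cell cannot be told apart.

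**Figure D1:**
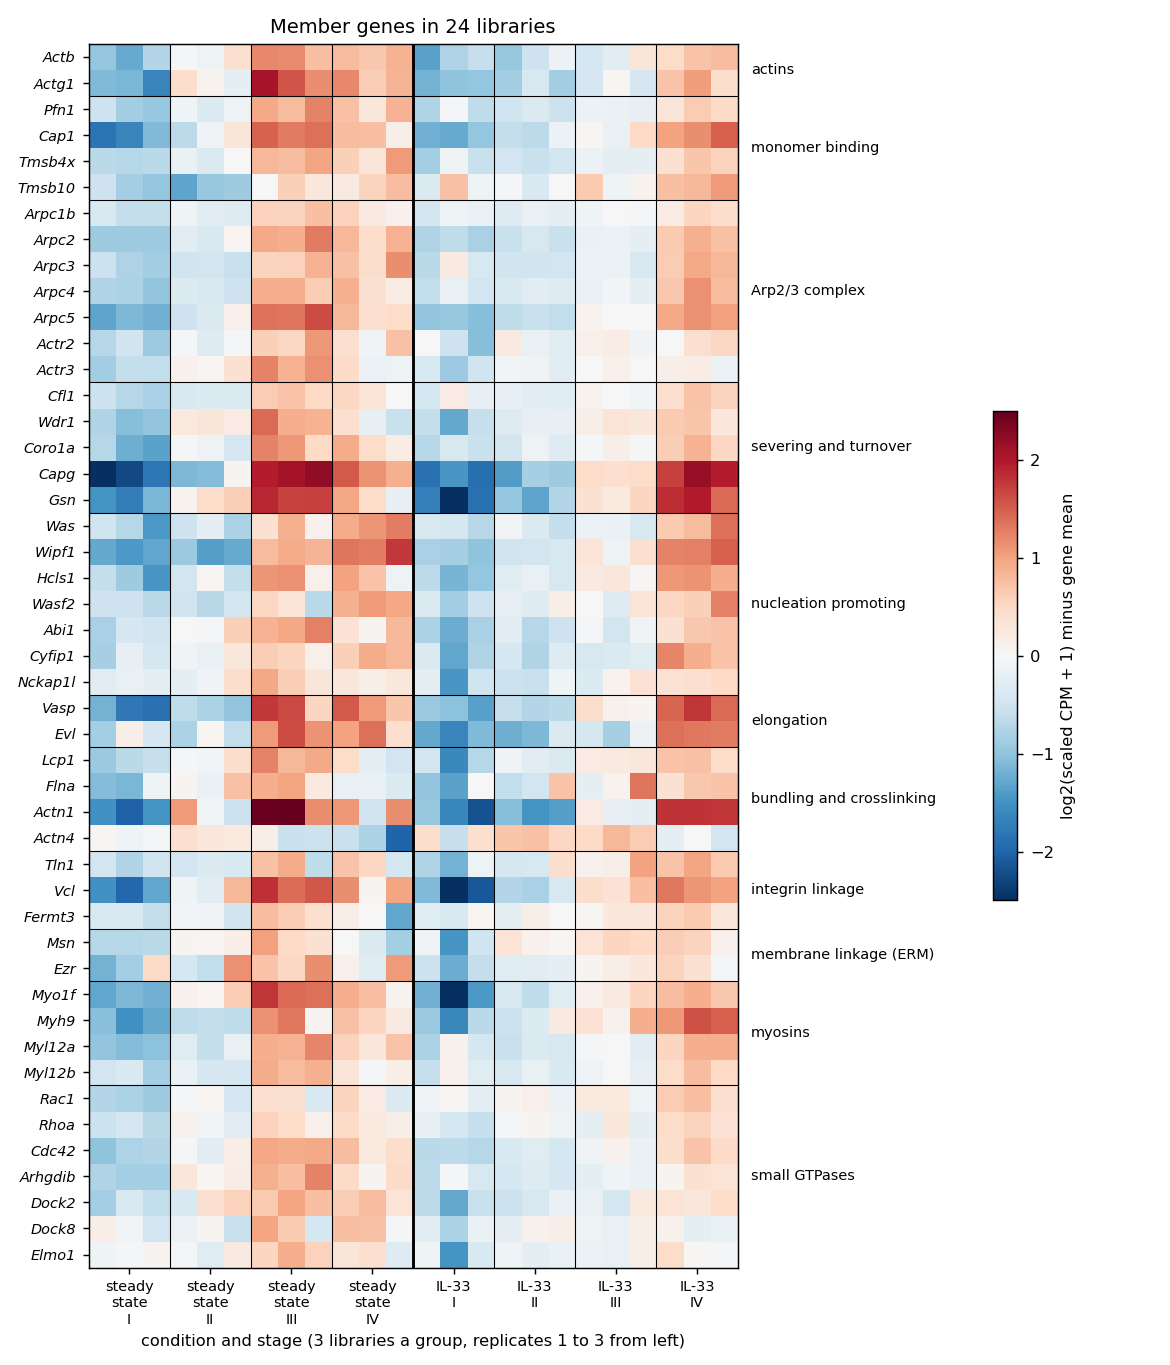
Level of each of the 47 genes in each of the 24 libraries, as log2(scaled CPM + 1) minus the gene's mean over libraries; columns are grouped by condition and stage and rows by role. Red fills stage III of steady state, where 38 of 47 genes had their highest mean, and stage IV of IL-33, where 44 of 47 did.

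The 47 genes took up 2.46% ± 0.0983 (SD, n = 3) of gene counts in steady state stage I, 3.69% ± 0.105 in II, 6.07% ± 0.543 in III and 4.73% ± 0.507 in IV. Under IL-33 the share was 2.52% ± 0.0664, 2.98% ± 0.116, 3.75% ± 0.181 and 4.92% ± 0.205. The libraries of the 2 conditions overlapped in stages I and IV, and in stages II and III every steady state library lay above every IL-33 library. In steady state 38 of the 47 genes had their highest group mean in stage III (80.9%, against 22.4% of all genes tested), 8 in IV (Arpc3, Cyfip1, Dock8, Rac1, Tmsb10, Was, Wasf2 and Wipf1) and 1, Actn4, in II. With IL-33, 44 genes were highest in IV (93.6%, against 40.9% of all genes tested), Actn4 and Msn in III and Dock8 in II. In 6 of the 47 in steady state (12.8%, against 8.82% of all genes tested) and in 36 under IL-33 (76.6%, against 19.9%), each stage had a higher mean than the one before. These shares and orders of means are descriptions with no test.

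**Figure D2:**
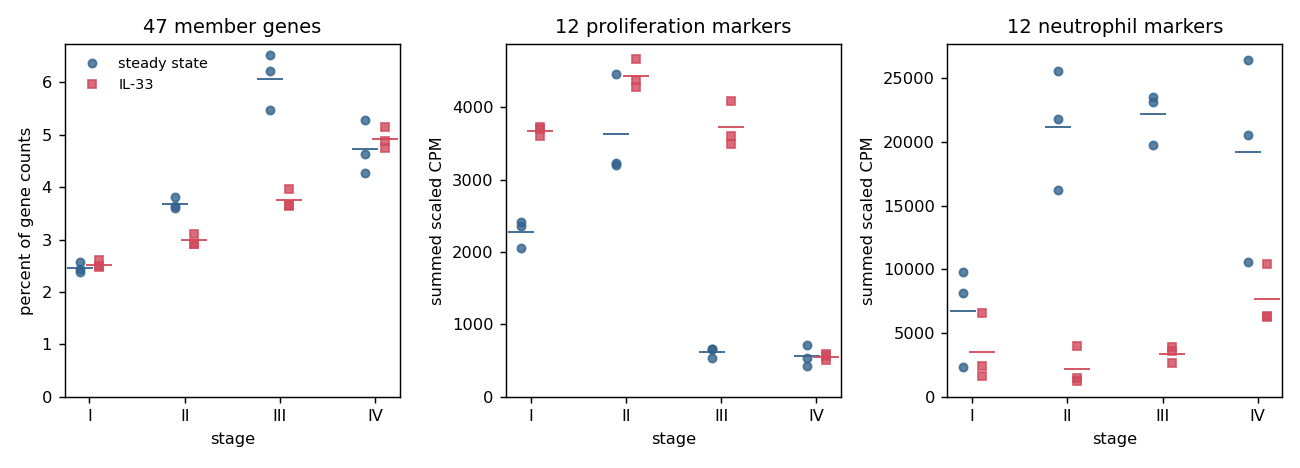
Left, percent of all gene counts taken by the 47 genes; middle and right, the summed scaled CPM of 12 proliferation and 12 neutrophil markers, by stage. Points are libraries and bars group means, and the steady state libraries of stage III lie above those of IL-33 on the left and below them in the middle panel.

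Compared per kilobase of exon, Tmsb4x was the most abundant of the 47 in all 8 groups, from 1303 scaled CPM per kb in steady state stage I to 3825 in stage III. Arhgdib and Actb came next, in the one order or the other, followed by Pfn1, with 2954, 2972 and 1743 scaled CPM per kb in steady state stage III. Lowest in that group were Cyfip1 at 10.97 scaled CPM per kb, Wasf2 at 12.9, Evl at 20.98 and Actn1 at 21.83. Over the 8 groups the log2 group means of a member spanned a median range of 1.78, against 2.08 for all genes tested. The genes with the widest ranges were Capg, Gsn, Actn1, Vcl, Myo1f, Vasp, Cap1, Actg1, Wipf1, Evl, Myh9 and Arpc5.

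At the first step in steady state, stage I to II, 4 of 5 severing and turnover genes, both actins and 3 of 7 Arp2/3 members were among the genes that rose. Gsn, which encodes the filament-cutting gelsolin, rose 3.57-fold (log2 1.84, SE 0.30, edgeR adjusted p = 0.00074), Capg, a capping protein of the same family, 2.97-fold (log2 1.57, SE 0.28, edgeR adjusted p = 0.00134) and Arpc5, a subunit of the Arp2/3 complex, 1.99-fold. Actg1, the gamma actin of non-muscle cells, rose 2.65-fold, Cap1, which recycles actin monomers, 2.68-fold and Arhgdib, an inhibitor of small GTPases in blood cells, 1.99-fold. In all, 18 of 47 genes rose and 0 fell (5.09% of all genes tested were called, 3.76% higher and 1.33% lower), and the median log2 change was 0.65 against -0.01 for all genes tested. Calls were made with edgeR's quasi-likelihood test at an adjusted p of 0.05 over all genes tested. Of 13 monocyte and macrophage markers 7 rose and of 12 neutrophil markers 1 rose in the same step, the summed neutrophil level going from 2341 to 9799 scaled CPM to 16280 to 25590; their part in these values was not tested. The count was 11 without the second stage I library and 2 when these 6 libraries were fitted without the others. Over all genes these fits called 280 and 25, against 649 in the main edgeR fit.

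From stage II to stage III in this condition most of the set rose, in all roles but the ERM linkers. Wipf1, which encodes the partner protein WIP of WASP, rose 4.15-fold (log2 2.05, SE 0.20, edgeR adjusted p = 1.36e-07), Capg 6.47-fold (log2 2.69, SE 0.29, edgeR adjusted p = 4.05e-07), Vasp, whose product lengthens filaments at the leading edge, 4.64-fold (log2 2.21, SE 0.28, edgeR adjusted p = 2.60e-06) and Arpc5 3.17-fold. Arpc2 rose 2.4-fold and Myl12a, a regulatory light chain of non-muscle myosin, 2.55-fold. Of the 47 genes 37 rose and 0 fell, where 34.5% of all genes tested were called, 17.1% higher and 17.4% lower, and the median log2 change was 0.99 against 0. All 7 members of the Arp2/3 complex, all 5 of severing and turnover, all 4 of monomer binding and all 4 myosin genes were among them. The 10 that did not pass were Actn4, Cyfip1, Dock2, Dock8, Ezr, Flna, Msn, Nckap1l, Rac1 and Tln1. All 12 proliferation markers fell in this step, from a sum of 3202 to 4452 scaled CPM to one of 531.9 to 661.5, and what part that has in the members' values was not tested. Of the 37 calls 27 passed under every alternative run, and with library totals as the scaling, which puts the median of all genes at -0.33, 28 members were higher and 1 lower.

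At the last steady state step, stage III to IV, the direction turned for part of the set. Actr3, an actin-related subunit at the core of the Arp2/3 complex, fell 1.98-fold (log2 -0.99, SE 0.19, edgeR adjusted p = 0.00206), Wdr1, the helper of cofilin, 2.23-fold (log2 -1.16, SE 0.23, edgeR adjusted p = 0.00215) and Arpc5 1.82-fold. Gsn fell 2.43-fold, Lcp1, the leukocyte bundling protein L-plastin, 2.07-fold and Msn, which encodes the membrane linker moesin, 2.05-fold. Wipf1 alone rose, 1.54-fold (log2 0.63, SE 0.19, edgeR adjusted p = 0.0362), and that call ended without any single stage III library, without the third stage IV library, without the steady state libraries numbered 3, without the low-count filter and when these 6 libraries were fitted without the others. Counted together, 12 of 47 genes fell and 1 rose (9.3% of all genes tested were called, 5.71% lower and 3.59% higher), with a median log2 change of -0.42 against 0.02. Of 12 eosinophil markers 7 fell in the same step, from a sum of 24610 to 36820 scaled CPM to 5017 to 8624. The sum of 13 monocyte and macrophage markers went from 2280 to 2859 to 1169 to 1340. The part of these markers in the members' values was not tested. Scaled by library totals, 2 members were higher and 7 lower. The count of calls ranged from 4, without the second stage IV library, to 16 when single libraries were left out, was 6, 8 and 7 without the first or the second stage III library or the third stage IV library, and 4 without the steady state libraries numbered 3. It was 0 when these 6 libraries were fitted without the others, and with replicate numbers as pairs it was 21, of which 19 were lower. Among all genes these 2 fits called 265 and 1766, against 1185 in the main edgeR fit. Of the 13 calls 0 passed under every alternative run.

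Across the whole path in steady state, stage IV against stage I, 39 of 47 genes were higher and Actn4 was lower (43.7% of all genes tested were called, 21.1% higher and 22.6% lower). The smallest adjusted p-values were those of Wipf1 at 7.24-fold, Capg at 10.4-fold, Arpc5 at 3.46-fold, Vasp at 6.61-fold, Arpc2 at 3.09-fold and Actg1 at 4.58-fold, with edgeR adjusted p between 3.23e-10 and 4.39e-07. The genes not called were Dock8, Elmo1, Ezr, Fermt3, Flna, Msn and Nckap1l. Actn4, an actinin, fell 1.94-fold. That call ended without the third stage IV library (41 higher and 0 lower), without the steady state libraries numbered 3 (42 and 0) and when these 6 libraries were fitted without the others (37 and 0). Between these stages 11 of 12 proliferation markers and 6 of 12 eosinophil markers fell and 6 of 13 monocyte and macrophage markers rose; their part was not tested.

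Under IL-33 at most 1 gene was called in each of the first 2 steps, and 29 were in the last. From stage I to II none of the 47 genes passed the test with edgeR (0.0942% of all genes tested did, 0.0785% higher and 0.0157% lower). At an unadjusted p under 0.05, 13 members were higher and 0 lower, and the share of all genes at that cut-off was not counted. DESeq2 called 2, and edgeR called 1 without the first stage I library. Among all genes they called 41 and 15, against 12 in the main edgeR fit. From stage II to III Capg alone rose, 2.76-fold (log2 1.47, SE 0.28, edgeR adjusted p = 0.0282), where 0.196% of all genes were called. Leaving out any of the 6 libraries ended that call. At an unadjusted p under 0.05, 11 members were higher, again with no count for all genes. With replicate numbers as pairs 4 genes passed, all higher, DESeq2 called 4, and 12 passed when these 6 libraries were fitted without the others. Over all genes these fits called 97, 111 and 738, against 25 in the main edgeR fit. The median log2 change was 0.39 in the first of these steps and 0.33 in the second, against 0.02 and -0.01 for all genes tested, and 38 and 45 of the 47 estimates were above 0.

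From stage III to IV under IL-33, 5 of 7 Arp2/3 members, 6 of 7 genes of Arp2/3 activators and their partners and 4 of 5 severing and turnover genes rose. Wipf1 rose 2.17-fold (log2 1.12, SE 0.19, edgeR adjusted p = 9.76e-05), Arpc5 2.02-fold (log2 1.02, SE 0.17, edgeR adjusted p = 0.000115), Arpc2 1.92-fold and Arpc4 2.05-fold. Cyfip1, a subunit of the WAVE complex that binds Rac, rose 2.51-fold and Capg 2.87-fold (log2 1.52, SE 0.28, edgeR adjusted p = 0.000196). In this step 28 of 47 genes rose and 1 fell (29.1% of all genes tested were called, 13.1% higher and 16% lower), with a median log2 change of 0.64 against 0.01. The one that fell was Actn4, 1.85-fold (edgeR adjusted p = 0.0238). Of 12 proliferation markers 11 fell here, from a sum of 3491 to 4085 scaled CPM to 504.3 to 589.8, and 5 of 12 neutrophil markers rose, from a sum of 2657 to 3899 to 6282 to 10440. Of 13 monocyte and macrophage markers 5 rose and 1 fell; what part the markers have in these values was not tested. The count was 19 without the second stage III library, and 18, of which 17 were higher, with library totals as the scaling.

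Over the whole path under IL-33, 45 of 47 genes were higher in stage IV than in stage I and 0 were lower (43.9% of all genes tested were called, 21.1% higher and 22.8% lower), and the 2 not called were Actn4 and Dock8. Gsn rose 14.7-fold (log2 3.88, SE 0.33, edgeR adjusted p = 4.61e-09), Capg 13-fold (log2 3.70, SE 0.30, edgeR adjusted p = 2.37e-09), Vasp 6.35-fold, Cap1 5.28-fold, Wipf1 4.72-fold and Arpc5 4.13-fold. Of 12 proliferation markers 11 were lower in stage IV and of 13 monocyte and macrophage markers 7 were higher, and their part was not tested.

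IL-33 was then compared with steady state within each stage. Reads that fell in no gene feature made up 17.83 to 30.5% in steady state libraries and 9.193 to 16.58% under IL-33. What part this has in the comparisons was not tested. In stage I, Tmsb10, a beta-thymosin, was 1.91-fold higher and Myl12a 1.63-fold higher, 2 of 47 where 4.33% of all genes tested were called, 2.94% higher and 1.39% lower. In that stage 4 of 12 proliferation markers were higher under IL-33; their part was not tested. Both calls ended when libraries were scaled by their totals or by DESeq2's size factors, and the count ranged from 0 to 4 over fits that each left out 1 library and was 1 without the steady state libraries numbered 3. In stage II Tmsb10 was 1.89-fold and Wipf1 1.67-fold higher, and Actn1 3.3-fold, Gsn 2.61-fold, Actg1 1.77-fold and Arhgdib 1.48-fold lower, 6 of 47 against 8.08% of all genes, 4.11% higher and 3.96% lower. Of 12 neutrophil markers 6, and of 13 monocyte and macrophage markers 8, were lower under IL-33 in stage II, and their part was not tested. The count of 6 fell to 0 without the second IL-33 library and was at most 3 without any other of the 6; DESeq2 called 11 and, with DESeq2's size factors, edgeR split 1 higher and 5 lower. Without the steady state libraries numbered 3, and when these 6 libraries were fitted without the others, 0 were higher and 4 lower, so the calls of Tmsb10 and Wipf1 ended.

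In stage III both actins and every Arp2/3 member were lower under IL-33. Actg1 was 3.72-fold lower (log2 -1.90, SE 0.25, edgeR adjusted p = 6.35e-06), Capg 3.13-fold (log2 -1.65, SE 0.28, edgeR adjusted p = 8.32e-05), Arpc5 2.68-fold (log2 -1.42, SE 0.18, edgeR adjusted p = 2.37e-06) and Arpc2 2.38-fold. Arhgdib was 2.22-fold lower and Cdc42, a small GTPase of cell polarity, 1.99-fold. Of the 47 genes 33 were lower and 1 higher (33.4% of all genes tested were called, 18.5% higher and 14.9% lower), and the median log2 difference was -0.90 against 0. All 7 Arp2/3 members and all 5 of severing and turnover were among them, and the one higher gene was Actn4, 1.91-fold (edgeR adjusted p = 0.0162). In the same comparison 12 of 12 proliferation markers were higher under IL-33 and 12 of 12 neutrophil markers lower, at a sum of 2657 to 3899 scaled CPM against 19810 to 23580, and 9 of 13 monocyte and macrophage markers were lower. Their part in the members' values was not tested. Between 28 and 36 members were called when single libraries were left out, and 23 of the 34 calls passed under every alternative run. With library totals as the scaling, which puts the median of all genes at 0.27, 23 members were lower and 1 higher.

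In stage IV, 3 genes were higher under IL-33 and 0 lower, where 12.3% of all genes tested were called, 7.54% higher and 4.72% lower. Gsn was 2.45-fold higher (log2 1.29, SE 0.30, edgeR adjusted p = 0.00562), Myh9, the heavy chain of non-muscle myosin, 1.87-fold and Msn 1.76-fold. Of 12 eosinophil markers 7 were higher and 1 lower under IL-33 in this stage. The 13 monocyte and macrophage markers summed to 3210 to 3576 scaled CPM under IL-33 against 1169 to 1340 in steady state. The 12 neutrophil markers summed to 6282 to 10440 against 10570 to 26450. The part of these markers was not tested. The number of members called was 1 without the second or the third steady state library or the second IL-33 library. It was 9 without the first steady state library and 1 when libraries were scaled by totals or by DESeq2's size factors. Without the steady state libraries numbered 3 the split was 1 higher and 1 lower. The call of Gsn passed under every alternative run.

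**Figure D3:**
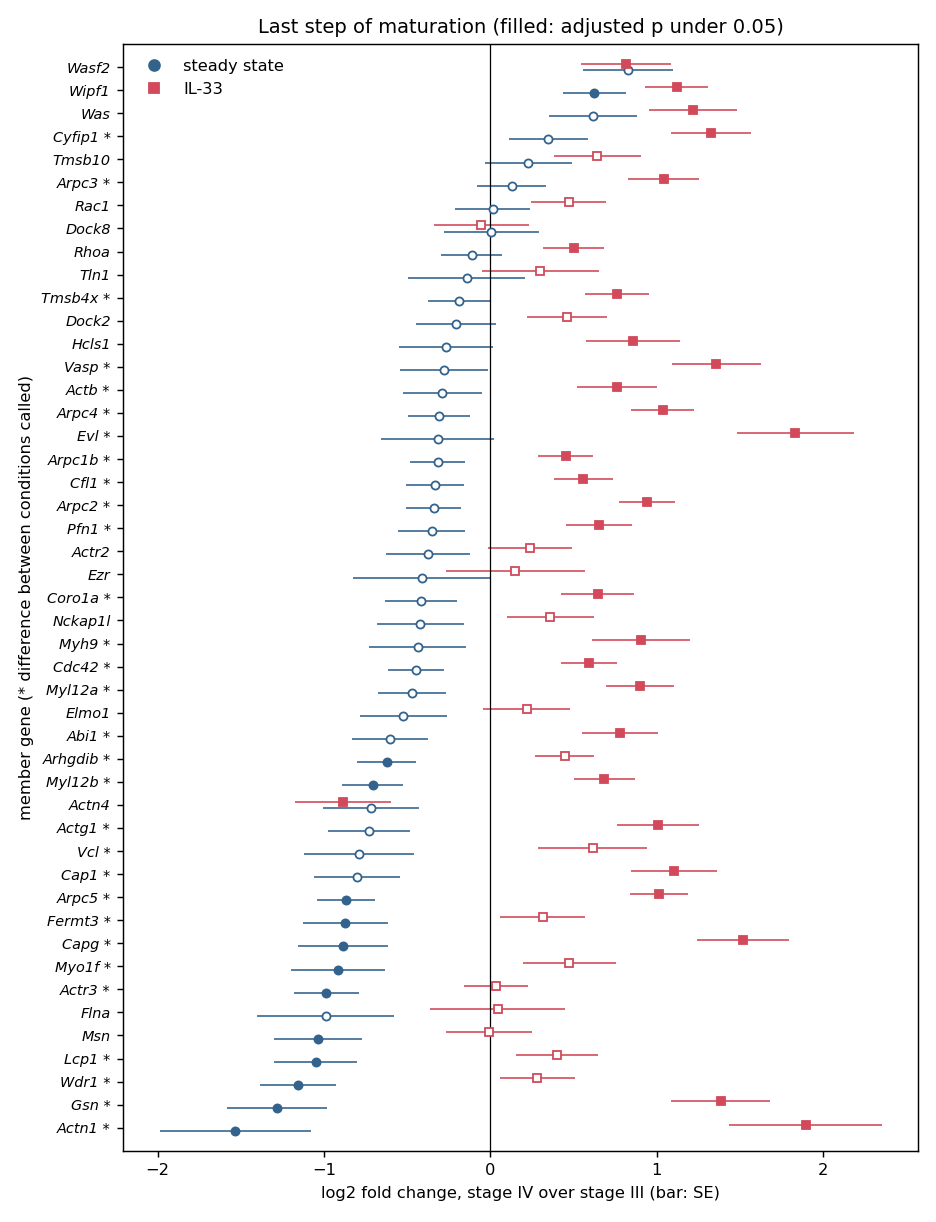
Log2 fold change from stage III to stage IV for each of the 47 genes (points, bars are SE), in steady state (circles) and under IL-33 (squares), filled where edgeR's adjusted p is under 0.05; asterisks mark the 30 genes whose change differed between conditions. In steady state 12 genes fell and 1 rose, and under IL-33 28 rose and 1 fell.

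The difference of a step between conditions was tested as an interaction. For the step from stage III to IV, 30 of 47 genes had a higher change under IL-33 than in steady state and 0 a lower one (18.8% of all genes tested were called, 8.5% higher and 10.3% lower), with a median difference of 1.04 on the log2 scale, and that of all genes tested was close to 0. The difference was 1.88 (SE 0.25) for Arpc5 (edgeR adjusted p = 1.55e-05), 2.67 (SE 0.42) for Gsn (edgeR adjusted p = 0.000115) and 2.40 (SE 0.39) for Capg (edgeR adjusted p = 0.00013). It was 3.43 (SE 0.65) for Actn1, 1.28 (SE 0.24) for Arpc2 and 1.39 (SE 0.26) for Myl12b. Of 7 Arp2/3 members 6 were among the 30, with Actr2 at 0.61 (SE 0.36) the one not called, and all 5 of severing and turnover and all 4 myosin genes. The count of 30 was 17 with library totals as the scaling and 20 without the second steady state stage IV library. Of 12 proliferation markers 12 had a lower change under IL-33 in this step, with a median difference of -2.97. Of 12 eosinophil markers 8 had a higher change, with a median of 2.64. The sum of 13 monocyte and macrophage markers went from 2280 to 2859 scaled CPM to 1169 to 1340 in steady state. Under IL-33 that sum went from 2801 to 2931 to 3210 to 3576. The sum of 12 neutrophil markers went from 19810 to 23580 to 10570 to 26450 in steady state. Under IL-33 the neutrophil sum went from 2657 to 3899 to 6282 to 10440. The part of these markers was not tested. For the step from stage II to III 7 genes differed, all with a smaller change under IL-33 (6.77% of all genes tested were called, 4.54% higher and 2.23% lower): Wipf1 by -1.38, Vasp by -1.34, Arpc4 by -1.07, Arpc5 by -1.04, Myl12a by -1.01, Myl12b by -0.98 and Arpc2 by -0.94 on the log2 scale. That count was 3 without the second stage II library of either condition, 4 without the third IL-33 library of stage III and 2 with library totals as the scaling. It was 17 with replicate numbers as pairs and 11 with DESeq2, which over all genes called 1405 and 1364, against 863 in the main edgeR fit. In that step 11 of 12 proliferation markers had a higher change under IL-33, and their part was not tested. For the step from stage I to II 0 genes differed with edgeR, as among all genes tested (0%), and DESeq2 called 1 member. At an unadjusted p under 0.05, 9 members were lower, and the share of all genes at that cut-off was not counted.

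Values by library follow the members' roles, beginning with the actins. Libraries of the 2 conditions did not overlap for 31.4% of all genes tested in stage II, 50% in III and 31.4% in IV. Of the 47 genes, IL-33 libraries lay wholly below in 17, 35 and 0 and wholly above in 6, 1 and 13. Between steady state stages 21.6% of all genes did not overlap from I to II, 36.7% from II to III and 23.4% from III to IV. Under IL-33 this share was 54.9% from III to IV. Actb and Actg1 encode the beta and gamma actin of non-muscle cells. Actb (chr5:142903115-142906754) stood in steady state at 1933, 1585 and 2296 in stage I, 3674, 3476 and 5010 in II, 8785, 8656 and 6446 in III and 6596, 6048 and 6923 in IV scaled CPM. Under IL-33 it stood at 1512, 2215 and 2556 in stage I, 1962, 2667 and 3449 in II, 2806, 3184 and 4662 in III and 5259, 6261 and 6537 in IV. The steady state libraries of stage III were above every IL-33 library of that stage, and the stage IV libraries of the conditions overlapped.

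Actg1 (chr11:120345690-120348542) was in steady state at 467, 455.8 and 316 in stage I, 1363, 1057 and 862 in II, 4198, 2960 and 2233 in III and 2318, 1543 and 1813 in IV scaled CPM. Its IL-33 libraries held 443.6, 495 and 509 in stage I, 550.2, 759.7 and 546 in II, 743, 1038 and 744 in III and 1641, 2077 and 1363 in IV. In steady state no library of a stage overlapped the stage before it up to III, whereas IL-33 libraries of stages II and III overlapped. Actb counts were 2.09 to 7.26 times those of Actg1 over the 24 libraries. The 2 coding sequences are closely alike and actin has many processed pseudogenes, so how reads were shared between copies is uncertain.

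Among monomer binding genes, Pfn1, Cap1 and Tmsb4x rose from stage II to III in steady state and from III to IV under IL-33. Pfn1, profilin, was in steady state at 1467, 1144 and 1084 in stage I, 1950, 1642 and 1923 in II, 4028, 3604 and 4943 in III and 3481, 2540 and 3820 in IV scaled CPM and under IL-33 at 1244, 2054 and 1352 in stage I, 1488, 1640 and 1438 in II, 1882, 1860 and 1805 in III and 2577, 3232 and 2913 in IV. Tmsb4x, thymosin beta 4, was at 1800, 1757 and 1803 in stage I, 2557, 2243 and 2861 in II, 5113, 4912 and 5706 in III and 4304, 3537 and 5983 in IV in steady state. With IL-33 it was at 1590, 2615 and 1935 in stage I, 2051, 1959 and 2096 in II, 2585, 2404 and 2436 in III and 3712, 4606 and 4289 in IV, and its stage IV ranges overlapped between conditions. Cap1 showed the widest course of the 4, with 31.9, 36.2 and 53.5 in stage I, 73.6, 109 and 144 in II, 324, 289 and 302 in III and 199.7, 196 and 129 in IV in steady state and 49.9, 48.2 and 58.6 in stage I, 76.5, 73.1 and 105 in II, 118, 103 and 163 in III and 233, 262 and 331 in IV under IL-33. The third steady state library was the lowest of stage IV. Tmsb10, thymosin beta 10, was the one member called higher under IL-33 in both stage I and stage II, calls that several of the alternatives given above ended, with 124, 98.1 and 91 in stage I, 70.8, 91.6 and 95.5 in II, 178, 269 and 216 in III and 209, 263 and 305 in IV in steady state and 138, 297 and 164 in stage I, 173, 137 and 178 in II, 279, 166 and 191 in III and 303, 317 and 373 in IV under IL-33. Tmsb4x counts were 8.82 to 36.1 times those of Tmsb10.

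All 7 members of the Arp2/3 complex rose from stage II to III in steady state, all 7 were lower under IL-33 in stage III, and all 7 were higher in stage IV than in stage I in both conditions. Arpc5 (chr1:152766542-152775597) was at 469, 541 and 510 in stage I, 823, 909 and 1290 in II, 3019, 2959 and 3619 in III and 2092, 1562 and 1607 in IV scaled CPM in steady state and at 589.7, 607 and 558 in stage I, 759.9, 793 and 767 in II, 1250, 1173 and 1165 in III and 2266, 2604 and 2386 in IV under IL-33. Each IL-33 library of stage III lay below each steady state one. Arpc2 was in stage III at 2312, 2247 and 2962 in steady state and 1069, 1080 and 1017 under IL-33, and Arpc4 at 963, 959 and 795 and 454.5, 492 and 436.7. Both groups of libraries lay clear of each other. From stage III to IV under IL-33, Arpc1b, Arpc2, Arpc3, Arpc4 and Arpc5 rose, while the actin-related subunits did not pass the test, with log2 changes of 0.24 (SE 0.25) for Actr2 and 0.03 (SE 0.19) for Actr3. In steady state Actr3 and Arpc5 were the 2 that fell in that step, and Arpc3 had an estimate above 0, 0.13 (SE 0.21). Whether subunits differ from one another was not tested.

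Severing, capping and turnover genes include the 2 members with the widest range over groups, Capg and Gsn. Capg (chr6:72544391-72562983) was in steady state at 43.3, 51.3 and 70.5 in stage I, 114, 116 and 261 in II, 973, 1049 and 1155 in III and 721, 542 and 457.5 in IV scaled CPM. Under IL-33 it was at 67.3, 89.6 and 66.6 in stage I, 94.1, 139.9 and 133 in II, 341, 332 and 342 in III and 816, 1125 and 969.5 in IV. In stage III each steady state library lay above each IL-33 library. The stage IV ranges did not overlap either, with IL-33 above, and that difference was not called (log2 0.76, SE 0.27, edgeR adjusted p = 0.0693). Gsn (chr2:35256380-35307892) was in steady state at 186, 159 and 240 in stage I, 564, 728 and 796 in II, 1949, 1703 and 1732 in III and 1031, 727 and 456.4 in IV, and under IL-33 at 162, 61.2 and 144 in stage I, 270.5, 211 and 319 in II, 685, 625 and 765 in III and 1904, 2095 and 1415 in IV. Its order between conditions turned over: IL-33 was lower in stages II and III and higher in IV. The third steady state library of stage IV was the lowest of its group. Cfl1, cofilin, had 1025, 904 and 838 in stage I, 1137, 1173 and 1149 in II, 2301, 2434 and 2076 in III and 2109, 1839 and 1462 in IV in steady state and 1096, 1706 and 1285 in stage I, 1289, 1234 and 1207 in II, 1563, 1479 and 1405 in III and 1969, 2410 and 2174 in IV under IL-33, and rose from stage II to III in steady state (log2 0.98, SE 0.18, edgeR adjusted p = 0.000174) and from III to IV under IL-33. Wdr1 had 1980, 1391 and 1353 in steady state stage III and 982, 637 and 500.2 in IV, with no overlap, against 821, 942 and 901 and 1157, 1196 and 887 under IL-33. Coro1a, the coronin of leukocytes, rose at the first 2 steps in steady state, 1.83-fold and 2.24-fold, and at the last under IL-33, 1.56-fold.

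Of the 7 genes of Arp2/3 activators and their partners, Cyfip1, Was, Wasf2 and Wipf1 had their highest steady state mean in stage IV. Wipf1 (chr2:73429610-73529734) was in steady state at 35.6, 32.1 and 35.3 in stage I, 46.2, 33.7 and 36.5 in II, 154, 168 and 161 in III and 226, 216 and 304 in IV scaled CPM. With IL-33 it was at 50.1, 49.1 and 43.5 in stage I, 62.7, 64 and 67.2 in II, 112, 81.4 and 116 in III and 210.5, 214 and 249.5 in IV. It was called higher at both of the later steady state steps, and several of the alternatives given above ended the call of the last. IL-33 libraries were above steady state in stage II and below it in stage III. Was, which encodes WASP, rose 2-fold from stage II to III in steady state and 2.33-fold from III to IV under IL-33, and Hcls1, the cortactin relative of blood cells, 2.26-fold and 1.81-fold. Of the WAVE complex genes, Wasf2 rose 1.76-fold, Abi1 1.71-fold and Cyfip1 2.51-fold in that last IL-33 step. Nckap1l, the blood-cell subunit of that complex, was not called between neighbouring stages or between conditions, but under IL-33 it was higher in stage IV than in I. It lay at 122 to 129, 124 to 199, 182 to 289 and 163 to 179 scaled CPM in stages I to IV of steady state. The difference of the last step between conditions was not called for Wasf2, at -0.01 (SE 0.38), for Was, at 0.60 (SE 0.37), or for Wipf1, at 0.49 (SE 0.26).

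Vasp and Evl encode relatives that add monomers to filament ends. Vasp (chr7:19256929-19271817) was in steady state at 196, 128 and 122 in stage I, 288, 258 and 225 in II, 1529, 1403 and 646 in III and 1296, 934 and 718 in IV scaled CPM and under IL-33 at 234, 218 and 174 in stage I, 298, 269 and 279 in II, 603, 484 and 466 in III and 1233, 1547 and 1201 in IV. The third steady state library of stage III was below the other 2 by more than 1.5 times, and it still lay above the IL-33 libraries of that stage. Evl (chr12:108554720-108688516) was at 13.1, 27.2 and 18.1 in stage I, 13.7, 25.2 and 15.6 in II, 52.2, 78.1 and 54.7 in III and 50.4, 65.3 and 32.9 in IV in steady state. Under IL-33 it was at 9.46, 7.16 and 10.9 in stage I, 9.96, 10.7 and 18.7 in II, 17.7, 13.3 and 22.1 in III and 64.8, 62.7 and 61.8 in IV, so its stage IV libraries stood above all others of that condition. Evl rose 3.39-fold from stage II to III in steady state and 3.56-fold from III to IV under IL-33.

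**Figure D4:**
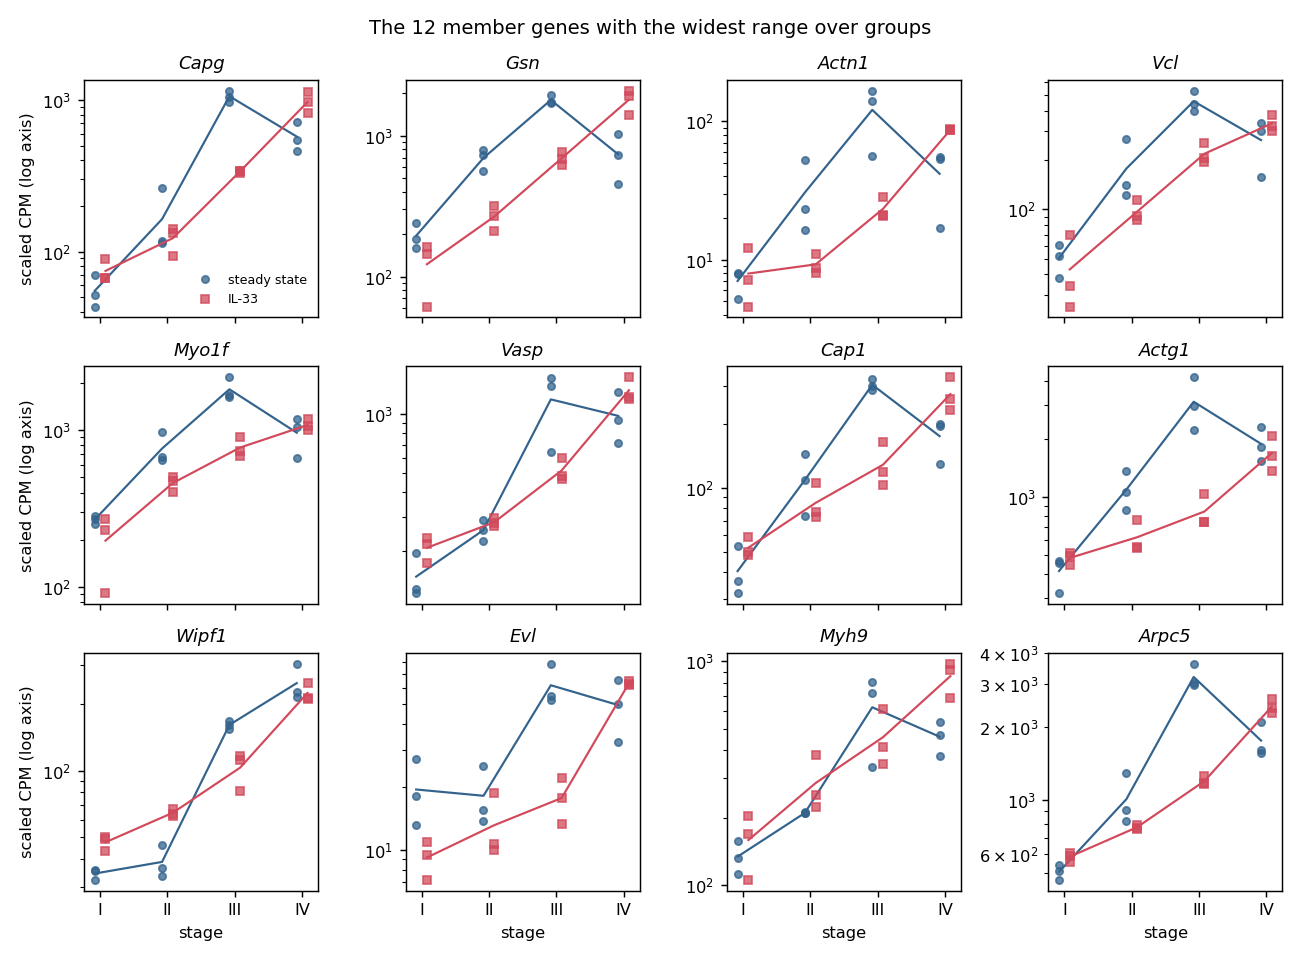
Scaled CPM (log axis) by stage for the 12 member genes with the widest range over groups; points are libraries, lines join group means, circles are steady state and squares IL-33. The steady state line peaks in stage III in every panel but that of Wipf1, and the IL-33 line is highest in stage IV in all 12.

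Of the crosslinking genes, Actn1 and Actn4 encode related alpha-actinins and took different courses. Actn1 (chr12:80167547-80260371) was in steady state at 7.84, 5.2 and 8.01 in stage I, 52.2, 23.3 and 16.4 in II, 139.9, 167 and 56 in III and 53, 16.8 and 55.4 in IV scaled CPM. Under IL-33 it was at 12.1, 7.16 and 4.58 in stage I, 11, 7.98 and 8.75 in II, 28.3, 21 and 20.7 in III and 87, 87.5 and 85.9 in IV. The 3 IL-33 libraries of stage IV lay within 85.9 to 87.5, while those of stage I spanned 4.58 to 12.1. In steady state the highest library was more than 1.5 times the lowest in every stage. Actn4 was in steady state at 325, 292 and 306 in stage I, 424, 385 and 371 in II, 349, 215 and 217 in III and 215, 183 and 77.3 in IV; it was the one member called lower in stage IV than in stage I. With IL-33 it was at 429, 211 and 416 in stage I, 509, 524 and 450.4 in II, 443.4, 558 and 487 in III and 265, 312 and 229 in IV, and it fell in the last step. The difference of that step between conditions was not called, at -0.17 (SE 0.41). Lcp1 was at 4275, 3212 and 3498 in stage III and 2471, 1537 and 1295 in IV of steady state, and at 2089, 2114 and 2194 and 2963, 2987 and 2500 under IL-33. Flna, filamin A, was not called between neighbouring stages or between conditions, but under IL-33 it was called higher in stage IV than in stage I. It had its highest value in the third library in all 4 IL-33 stages, among them 511, 647 and 1531 in stage III.

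Vcl (chr14:20929398-21033676), vinculin, rose at the first 2 steady state steps. It was in steady state at 52.1, 38.1 and 60.7 in stage I, 142, 123 and 268 in II, 533, 399 and 442.3 in III and 337, 158 and 301 in IV scaled CPM and under IL-33 at 69.5, 25.4 and 33.8 in stage I, 90.7, 85.5 and 114 in II, 206, 195 and 256 in III and 379, 324 and 302 in IV. Steady state libraries of stage III were all above those of IL-33. Fermt3, kindlin 3 of blood cells, rose 1.78-fold from stage II to III in steady state and fell 1.83-fold from III to IV, where its libraries were at 728, 638 and 261. That step differed between conditions by 1.19 (SE 0.36). Tln1, talin 1, passed no step test and no stage comparison, and the third steady state libraries of stages III and IV were the lowest of their groups, 764, 871 and 298 and 751, 663 and 338. Of the ERM genes, which tie filaments to the membrane, Msn fell from stage III to IV in steady state, from 1198, 832 and 768 to 587, 454.1 and 323. Ezr, ezrin, passed no such test and in steady state stages I, II and IV the third library was more than 1.5 times the other 2, at 140.2, 179 and 444.9, 237, 209.8 and 705 and 348, 260.2 and 676.

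All 4 myosin genes rose from stage II to III in steady state. Myo1f (chr17:33555707-33607764), a single-headed myosin of leukocytes, was in steady state at 252, 285 and 270.4 in stage I, 676, 644 and 968 in II, 2169, 1660 and 1623 in III and 1177, 1048 and 661 in IV scaled CPM. With IL-33 it was at 271, 91.4 and 231 in stage I, 475, 400.5 and 504 in II, 685, 733 and 904 in III and 1065, 1169 and 995 in IV. Its rise at the first steady state step was 2.83-fold and passed under every alternative run. Myh9 (chr15:77760587-77842175) was at 157, 112 and 132 in stage I, 209, 212 and 209 in II, 720.1, 812 and 338 in III and 536, 468 and 378 in IV in steady state and at 169, 105 and 202 in stage I, 224, 253 and 380.3 in II, 416, 347 and 612 in III and 684, 974 and 919 in IV under IL-33. The third steady state library of stage III was below the other 2 by more than 1.5 times, and in stage IV all IL-33 libraries were above those of steady state. Myl12a and Myl12b, light chains for Myh9, rose 1.86-fold and 1.61-fold in the last step under IL-33. These 2 genes are neighbours on chromosome 17 that share a transcript in the annotation, so their counts may be split.

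The small GTPases Rac1, Rhoa and Cdc42 switch filament assembly on at chosen places of the membrane. Rac1 was in steady state at 282, 272 and 256 in stage I, 466, 489 and 351 in II, 624, 619 and 362 in III and 696, 548 and 374 in IV scaled CPM and under IL-33 at 445.3, 483 and 405 in stage I, 493, 516 and 426 in II, 562, 562 and 439.7 in III and 736, 799 and 631 in IV, and passed no step test and no stage comparison. Over the whole path it was 2-fold higher in steady state and 1.63-fold higher under IL-33. Rhoa was in steady state at 256, 278 and 230 in stage I, 398, 355 and 305 in II, 553, 512 and 408 in III and 516, 437.2 and 410.1 in IV, with a rise of 1.39-fold from stage II to III. Under IL-33 it was at 322, 274 and 248 in stage I, 365, 388 and 341 in II, 318, 448.2 and 315 in III and 508, 546 and 477 in IV and rose 1.42-fold in the last step. Cdc42 (chr4:137319696-137357720) had the widest course of the 3, with 466, 549.7 and 568 in stage I, 923, 768 and 1055 in II, 1847, 1793 and 1798 in III and 1603, 1117 and 1269 in IV in steady state and 591, 598 and 573 in stage I, 718, 758 and 692 in II, 886, 1005 and 841 in III and 1271, 1538 and 1313 in IV under IL-33. Its stage III libraries spanned 1793 to 1847 and 841 to 1005 in the 2 conditions, with no overlap. Arhgdib fell from 4770, 4307 and 6051 in steady state stage III to 3573, 2690 and 3564 in IV, against 2158, 2384 and 2275 and 2691, 3341 and 3266 under IL-33. Dock2 and Dock8 are exchange factors that switch on Rac and Cdc42, and Elmo1 is a partner of Dock2. Dock2 rose 1.82-fold at the first steady state step, Elmo1 1.64-fold from II to III, and Dock8 passed no test in any step or stage comparison.

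Beyond the members, 82 other genes of the actin cytoskeleton were listed and 78 were tested. From stage II to III in steady state 31 rose and 4 fell, where 17.1% of all genes tested rose and 17.4% fell. From III to IV 2 rose and 11 fell, against 3.59% and 5.71%. Under IL-33 0 passed in each of the first 2 steps, where 0.0942% and 0.196% of all genes did, and 26 rose and 4 fell in the last, against 13.1% and 16%. In stage III 30 were lower and 6 higher under IL-33, against 14.9% and 18.5%. In the last step the change under IL-33 minus that in steady state was called higher for 23 and lower for 1, against 8.5% and 10.3%. The estimate of that difference was above 0 for 62 of the 78. The Srf gene itself was 1.72-fold higher in stage IV than in stage I of steady state and 1.94-fold higher under IL-33 in stage II (log2 0.96, SE 0.29, edgeR adjusted p = 0.0393), and its cofactor gene Mkl1 rose 3.64-fold from stage II to III in steady state. Lsp1, a leukocyte F-actin binding protein, rose 5.04-fold at the first steady state step and 7.61-fold from III to IV under IL-33, and was 10.8-fold lower under IL-33 in stage III. Tpm4, a tropomyosin that coats filaments, rose 8.61-fold from I to II in steady state. Zyx, zyxin of focal adhesions, rose 3.58-fold, the capping subunit gene Capzb 2.46-fold and Myl6, a myosin light chain, 3-fold from II to III. Some fell where members rose: Diaph3, a formin, was 13.4-fold lower in IL-33 stage IV than in III, and Dock10 fell 4.06-fold from II to III in steady state. In the last steady state step Marcksl1 fell 4.11-fold, Dstn, the cofilin relative destrin, 3.6-fold and Capza1 2.78-fold. Vav3, an exchange factor of small GTPases, was 5.65-fold lower under IL-33 in stage III.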

How the data were processed

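RNA of sorted bone marrow eosinophils was measured in 24 libraries. Per the labels' protocols they were made with SMART-Seq v4 (17 cycles of amplification) and Nextera XT, which leave the strand unmarked. The deposited files hold raw counts of reads per gene symbol; the submitters' processing notes name STAR 2.6.1a, DESeq2 and the build mm10. How reads were counted, with which annotation and strand setting, is not given in the sources used here. The 2 rows per file that name no gene, reads with no feature (17.83 to 30.5% of reads in steady state, 9.193 to 16.58% under IL-33) and ambiguous reads (1.729 to 2.601%), were left out.

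Counts were fitted in R 4.3.3 with edgeR 4.0.16: filter by group (minimum count 10), trimmed-mean scaling, and 1 robust quasi-likelihood fit of 8 groups over all 24 libraries, tested on simulated data first. Adjustment was by Benjamini-Hochberg over all genes tested, and an SE is the absolute log2 fold change divided by the root of its F statistic. Folds are those of the fit. Replicates differed by far more than counting error (chi-square per degree of freedom 20.04 to 122.6), so the spread between 3 libraries sets the precision. Alternatives were DESeq2 1.42.0, other scalings, no low-count filter, only the groups compared, replicate numbers as a block and libraries left out.

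Members and lists were chosen with earlier results of these data known. In each comparison the members named are up to 6 higher and 6 lower with the smallest adjusted p, and every library is shown for 9 central genes and for the 12 with the widest range; single library values of other members were chosen after they were seen. The rule also took up to 3 other actin genes per step; Srf, Mkl1, Vav3 and Zyx were chosen for their role or after their values were seen, and results of some single genes are not reported here.

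Same-numbered libraries were checked for pairing by the correlation of their deviations from group means, with a bar of 0.1 for all 3 pairs. In steady state it was passed for I to II (0.12 to 0.30) and III to IV (0.11 to 0.22) and for I to IV (0.12 to 0.19), and under IL-33 for I to II (0.15 to 0.24) and II to III (0.13 to 0.24). The labels give a number only, so any pairing is read from the data. Positions and exon lengths are from GENCODE M21 (GRCm38, the assembly of mm10). Counted genes overlap exons of 18 members, most on the opposite strand, and reads there cannot be told apart. Plots used Python 3.11.15 and matplotlib 3.10.9.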

Additional observations from a re-analysis of the deposited data

Results flagged for a closer look

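Members stand here because the change from one stage to the next differed between IL-33 and steady state in a test of that difference (edgeR interaction term, adjusted over all genes tested). For the step from stage II to III the log2 difference, IL-33 minus steady state, was -1.38 for Wipf1, -1.34 for Vasp, -1.07 for Arpc4, -1.04 for Arpc5, -1.01 for Myl12a, -0.98 for Myl12b and -0.94 for Arpc2. In these 7 genes the change was smaller under IL-33.

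For the step from stage III to IV the difference was above 0 in each of the 30 genes that passed. Among the actins and monomer binding genes it was 1.74 for Actg1, 1.05 for Actb, 1.90 for Cap1, 1.01 for Pfn1 and 0.95 for Tmsb4x. In the Arp2/3 complex it was 1.88 for Arpc5, 1.35 for Arpc4, 1.28 for Arpc2, 1.02 for Actr3, 0.91 for Arpc3 and 0.77 for Arpc1b. Severing and turnover genes had 2.67 (Gsn), 2.40 (Capg), 1.44 (Wdr1), 1.06 (Coro1a) and 0.89 (Cfl1). The WAVE complex genes Abi1 and Cyfip1 had 1.38 and 0.98, and the elongation genes Evl and Vasp 2.15 and 1.64. Actn1 had the largest of the 30, 3.43, and the bundling gene Lcp1 1.45. The adhesion linkers Vcl and Fermt3 had 1.40 and 1.19, and the myosin genes Myo1f, Myh9, Myl12a and Myl12b 1.39, 1.34, 1.37 and 1.39. Cdc42 and Arhgdib had 1.04 and 1.07.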

How the results depend on the processing

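Of 3592 repeats of single gene calls, 3105 kept their direction and their side of the threshold, 487 no longer passed and 0 reversed. The counts of members called that moved by over 1.5 times were these, and the cause was not tested. In a fit of only the groups compared, steady state gave 2 calls from stage I to II and 0 from III to IV. IL-33 gave 12 from II to III, and stage I gave 0 between conditions. Over all genes that fit called 25, 265, 738 and 342 in these comparisons, against 649, 1185, 25 and 552 in the main edgeR fit. Fewer libraries enter the fit of only the groups compared. Library totals as the scaling gave 18 from stage III to IV under IL-33, 0 and 1 between conditions in stages I and IV, and 2 and 17 for the differences of the steps from II to III and III to IV; they put the median of all genes between -0.40 and 0.31 on the log2 scale over the comparisons. DESeq2's size factors within edgeR gave 0 and 1 in stages I and IV. Without a low-count filter 2 members passed from II to III under IL-33 and 1 between conditions in stage I. DESeq2 itself called 2 and 4 members in the first and the second IL-33 step and 5 and 11 between conditions in stages I and II. It called 1 and 11 for the differences of the first and the second step. Its all-gene counts there were 41, 111, 1078, 1542, 103 and 1364, against 12, 25, 552, 1029, 0 and 863 in the main edgeR fit. Without the steady state libraries numbered 3 the count was 4 from III to IV in steady state and 1 between conditions in stage I.

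With 1 library left out in turn, the counts in steady state ranged from 11 to 17 for stage I to II, 34 to 39 for II to III, 4 to 16 for III to IV and 37 to 41 for I to IV. Under IL-33 they ranged from 0 to 1, 0 to 0, 19 to 25 and 40 to 43 for the same comparisons. Between conditions they ranged from 0 to 4, 0 to 3, 28 to 36 and 1 to 9 in stages I to IV, and for the differences of steps from 0 to 0, 3 to 8 and 20 to 31.

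With the replicate number as a block the counts were 21 from stage III to IV in steady state and 4 from II to III under IL-33. They were 2 and 17 for the differences of the first and the second step. All-gene counts with the block were 1766, 97, 47 and 1405 there, against 1185, 25, 0 and 863 in the main edgeR fit. Where the bar for pairing was not passed, the block gave 41 for II to III in steady state, 31 and 45 for III to IV and I to IV under IL-33, and 3, 7, 36 and 4 between conditions. All 6 libraries lay closest to the one of their own number in each of the 6 steps between neighbouring stages, a hint from the data, not the design. The block ended no single gene call.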
